A study of Mus musculus with 15 samples.

Results

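The comparison described here is that of mouse embryonic stem cells carrying siRNA against Vprbp with cells carrying control siRNA, neither given any addition. Its members were chosen by the sample titles: 3 libraries titled as control siRNA and 3 titled as Vprbp siRNA with nothing added, which makes 6 of the 15 RNA sequencing libraries of the study. All came from the mouse line ES-R1, at a passage below 20, grown without serum in medium supplemented with N2 and B27, over 4 days of differentiation. The remaining 9 libraries, 3 in each group, held control siRNA with Activin A at 25 ng/ml, Vprbp siRNA with Activin A at the same dose, and control siRNA with SB, an inhibitor of the Activin/Nodal receptors. The labels give neither the dose of SB nor the sequences and doses of the siRNAs. Nor do they say whether 1 siRNA or a pool was used against Vprbp. With no rescue and no other Vprbp siRNA to compare, effects of less Vprbp and other effects of the siRNA cannot be told apart. Nothing in the labels says whether replicates came from separate cultures. The p-values therefore measure the spread between these libraries only, and that spread may be technical.

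Vprbp, or Dcaf1, selects substrates for a ubiquitin ligase, CRL4: the cullin Cul4a or Cul4b is the scaffold, Ddb1 is the adaptor, and the receptor chooses which proteins are marked. It is also known as the host protein that the lentiviral factor Vpr recruits. Embryonic stem cells that leave the naive state of pluripotency pass through a primed, epiblast-like state, marked by genes such as Fgf5 and Pou3f1, which Activin/Nodal signalling through Smad2 and Smad3 sustains.

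The 6 libraries held 13095088 to 15527245 counts assigned to genes, and levels are given as CPM, counts scaled to a common library size with TMM factors. A gene with 0 counts could still be at 0.193 to 0.229 CPM, depending on the library, if 3 counts are taken as the limit for counting error alone. Markers of the labelled cell type were abundant, with Pou5f1 between 673 and 741 CPM, Sox2 between 688 and 966, and Nanog between 359 and 471 over the 6 libraries. Replicate 3 of both groups lay apart: on the first principal component of the 6 libraries, which held 40.2% of the variance, control siRNA replicate 3 was at 34.6 and Vprbp siRNA replicate 3 at 10.2, while the other 4 lay between -23.3 and -0.84. No 2 replicates were alike within sampling noise (chi-square over genes divided by its degrees of freedom, 4.01 to 16.1). Same-numbered libraries of the 2 groups deviated together from their group means, with correlations over genes of 0.12, 0.20 and 0.37 for replicates 1, 2 and 3, so the counts of calls are given both without and with the replicate number as a block.

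Vprbp RNA itself fell in the knockdown and was lower in each of its libraries, though most of the RNA remained. The gene (chromosome 9, 106814169 to 106880992, GRCm38) was at 173, 167 and 173 CPM in the control siRNA libraries and at 121, 132 and 114 CPM in the Vprbp siRNA libraries. The groups did not overlap, and the mean fell from 171.0 ± 3.6 to 122.2 ± 8.9 CPM (SD, n = 3), a change of -28.5%. By edgeR's quasi-likelihood test the log2 fold change was -0.49 ± 0.06 (SE; Benjamini-Hochberg adjusted p = 0.0020), and an exact two-sided permutation test of 3 against 3 libraries gave p = 0.1, the smallest it allows. Vprbp protein was not measured.

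No other tested gene of the CRL4 machinery passed the threshold of 0.05 on the adjusted p. Of 26 ligase subunits, receptors and regulators tested, 1 fell, Vprbp, and 0 rose, with a median log2 fold change of 0.01, beside 0.0009 over all genes tested. The scaffold Cul4b was at 543, 523 and 541 CPM in controls and 529, 591 and 661 CPM in knockdown libraries (0.15 ± 0.07, adjusted p = 0.63). The adaptor Ddb1 lay between 1696 and 1852 CPM in all 6 libraries, with overlapping groups (0.06 ± 0.06, adjusted p = 0.82). Cul4a had a log2 fold change of 0.11 ± 0.07 (adjusted p = 0.74). Among 14 genes whose products have been reported to bind Vprbp or to be ubiquitinated with it, such as the Hippo kinases Lats1 and Lats2, the tumour suppressor Nf2, the cell polarity protein Llgl2 and the Tet dioxygenases, 0 were called, and the values ran from -0.15 for Llgl2 to 0.30 for Lats2.

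Beside Vprbp, 5 genes rose in the knockdown: Ifitm3, Epha4, Zfp608, Pgap1 and Meis1. These 6 calls are 0.0411% of 14600 genes tested, 0.0342% higher and 0.00685% lower, whereas 8.16% had an unadjusted p under 0.05. In each of the 5 genes every knockdown library lay above every control library, a separation seen in 12.3% of all genes tested (6.64% higher, 5.65% lower). With replicate 3 of both groups left out, which was chosen after seeing the data, 24 genes were called (0.162%), 20 higher (0.135%) and 4 lower (0.0271%), with Ifitm3, Vprbp, Zfp608 and Epha4 among them, while Pgap1 (adjusted p = 0.070) and Meis1 (adjusted p = 0.16) were not. DESeq2 called 31 genes of 13463 with an adjusted p (0.23%), 25 higher (0.186%) and 6 lower (0.0446%).

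**Figure D1:**
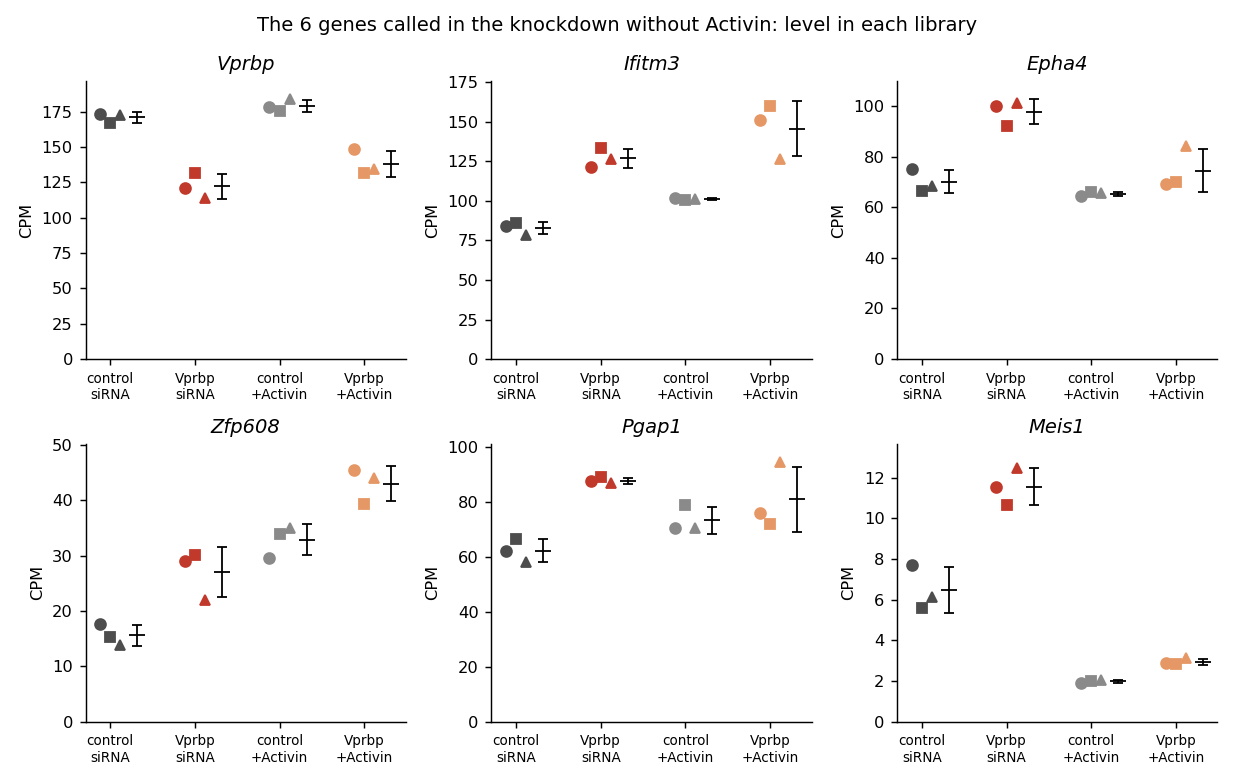
CPM of the 6 called genes in each library (circles, squares and triangles are replicates 1, 2 and 3) for control siRNA and Vprbp siRNA without and with Activin A; the bars give the mean and SD of 3 libraries. In each panel the 3 Vprbp siRNA libraries without Activin lie wholly above or, for Vprbp, wholly below the 3 control siRNA libraries, and Meis1 is under 4 CPM in all 6 Activin libraries.

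Ifitm3 (chromosome 7, 141009590 to 141010744), an interferon-inducible membrane protein that restricts virus entry and an early marker of germ cell precursors, had the smallest p. It was at 84.1, 86.2 and 78.6 CPM in controls and 121, 133 and 127 CPM in knockdown libraries. All 3 knockdown libraries were higher by a similar amount, 53.2% in the mean (log2 fold change 0.61 ± 0.08, adjusted p = 0.0017). The RefSeq window from 250 bases before to 30 bases after its start (GRCm38.p6, chr7:141010715-141010994, minus strand) is shown because it holds 2 matches, in capitals, to the interferon-stimulated response element, the DNA element through which type I interferon acts on its target genes.
Ifitm3: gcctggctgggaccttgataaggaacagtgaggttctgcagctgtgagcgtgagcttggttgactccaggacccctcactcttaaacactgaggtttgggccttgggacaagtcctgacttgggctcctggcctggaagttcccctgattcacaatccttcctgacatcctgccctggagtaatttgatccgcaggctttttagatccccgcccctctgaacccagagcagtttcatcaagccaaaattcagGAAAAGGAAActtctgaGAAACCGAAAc
The element was searched on both strands as 2 GAAA blocks with 2 bases of any kind between them. It occurred in 3.28% of 32851 such windows and in those of 12 of the 17 interferon response genes with a window, Ifitm3 included. A match is a description of the letters and not a binding site.

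Epha4 (chromosome 1, 77367182 to 77515107), an ephrin receptor tyrosine kinase, was at 75.2, 66.5 and 68.2 CPM in controls and 100.1, 92.0 and 101.1 CPM in knockdown libraries (0.48 ± 0.08, adjusted p = 0.017). Zfp608 (chromosome 18, 54888045 to 54992591), a zinc finger protein, was at 17.6, 15.3 and 13.9 CPM in controls and 29.1, 30.1 and 21.9 CPM in knockdown libraries (0.79 ± 0.13, adjusted p = 0.018). The lowest knockdown value of Zfp608 was that of replicate 3, still above all controls. Pgap1 (chromosome 1, 54473000 to 54557684), which removes the inositol acyl chain during remodelling of GPI anchors, was at 62.1, 66.5 and 57.9 CPM in controls and 87.5, 88.8 and 86.7 CPM in knockdown libraries (0.50 ± 0.09, adjusted p = 0.028). Its 3 knockdown values were close together and above all controls. Of the other 15 tested genes of GPI anchor synthesis and remodelling 0 were called; the list's median was 0.01.

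Meis1 (chromosome 11, 18880428 to 19019651), a TALE homeobox factor that pairs with Pbx and Hox proteins, was the least abundant of the called genes, at 7.73, 5.58 and 6.14 CPM in controls and 11.5, 10.7 and 12.5 CPM in knockdown libraries. The mean was 78.3% higher (0.83 ± 0.14, adjusted p = 0.028). Its level also differed widely with Activin/Nodal signalling in libraries outside the 2 groups compared. With control siRNA it was at 1.91, 1.99 and 2.05 CPM with Activin and 13.4, 12.7 and 11.5 CPM with SB (log2 ratio of Activin to SB -2.65 ± 0.17, adjusted p = 2.9e-10). Those libraries enter edgeR's test of the knockdown through the shared estimate of spread. In the fit of the 6 libraries alone, without a block, Meis1 was not called by that test (adjusted p = 0.43). Of the knockdown libraries without addition, 2 lay within the range of the SB libraries to 3 digits and 1 lay below it.

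The genes next in order of p, which did not pass, were mostly higher in the knockdown. Over all genes tested, 671 higher and 520 lower ones had an unadjusted p under 0.05 by edgeR's test, and 6.64% and 5.65% had groups apart. The 14 that followed the called genes were taken among genes of at least 1 on the mean log2 CPM scale with groups apart. Unnamed gene models were left out. Of these 14, 13 were higher and 1 was lower. The higher ones included the adhesion receptor Adgrl2 (0.49 ± 0.09, adjusted p = 0.052), the neuronal adhesion molecule Nrcam (1.45 ± 0.28, adjusted p = 0.088), the TALE factor Meis2 (0.67 ± 0.13, adjusted p = 0.095), the gap junction protein Gja1 (0.32 ± 0.06, adjusted p = 0.11), the ephrin ligand Efnb2 (0.48 ± 0.11, adjusted p = 0.18), and Dcun1d4 (0.41 ± 0.09, adjusted p = 0.15), which promotes the attachment of Nedd8 to cullins. The lower one was the fatty acid hydroxylase Fa2h, at 2.17, 3.41 and 4.19 CPM in controls and 0.993, 1.13 and 1.57 CPM in knockdown libraries (-1.38 ± 0.29, adjusted p = 0.14). Tmem47, Soga3, BC064078, Cachd1, the lysophosphatidic acid receptor Lpar4, Rin2 and the TALE factor Pknox2 made up the rest, with values of 0.36 to 1.60.

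Many more genes were called when replicates of the same number were treated as pairs. With the block in the fit of all 15 libraries, 18 genes were called (0.123%), 15 higher and 3 lower, and all 6 genes above were among them. Among the 12 others were the zinc and manganese transporter Slc39a8 (0.95 ± 0.12, adjusted p = 0.00057), at 15.3, 17.0 and 11.8 CPM in controls and 28.2, 37.2 and 20.9 CPM in knockdown libraries, the small GTPase Arl4c (0.57 ± 0.08, adjusted p = 0.0054), and the falls of Stac2 (-0.48 ± 0.09, adjusted p = 0.031) and Fa2h (-1.38 ± 0.25, adjusted p = 0.031). The fit of the 6 libraries alone with the block is named the paired comparison from here on. It tested 14063 genes and found 333 calls (2.37%), of which 218 were higher (1.55%) and 115 were lower (0.818%). The 6 libraries without the block gave 1 call, Ifitm3 (0.00711%). Of the genes given a paired value below, none but the 6 called genes passed edgeR's test of all 15 libraries without the block.

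The paired differences were small. In the paired comparison the median log2 fold change was 0.46 over the 218 higher genes and -0.36 over the 115 lower ones, with extremes of 1.58 and -1.39. All 333 differed in the same direction in each of the 3 pairs. The paired fit that chose them favours such genes, so this is not independent support. Over all 14600 genes tested, 2644 were higher and 2605 lower in all 3 pairs. The unpaired groups were apart in 124 of the 218 and 38 of the 115. Without pair 3 the paired comparison called 325 genes (2.3%), 239 higher and 86 lower, of which 208 were among the 333. Without pair 1 it called 634 genes (4.49%; 2.54% higher and 1.95% lower) and without pair 2 it called 103 (0.726%; 0.494% higher and 0.233% lower), so the count of calls rested on which pairs entered. The numbers were paired from the data alone: no other pair of groups had all 3 correlations above 0.1, and control siRNA replicate 1 correlated more with Vprbp siRNA replicate 2 (0.19) than with its own number (0.12).

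Genes of the primed epiblast were the list most often higher in the paired comparison. Of 15 tested, 0 were called without the block, 9 rose and 0 fell in the paired comparison (against 1.55% and 0.818% of all genes), and 14 of 15 had a log2 fold change above 0, with a median of 0.41. Without pair 3, 10 rose, beside 1.69% of all genes. Without pairs 1 and 2 the counts were 9 and 5. The lists were chosen with earlier results of these data known, so their direction is not independent evidence.

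Fgf5, the signalling factor used as the standard marker of the primed state, was at 13.9, 14.1 and 3.15 CPM in controls and 20.5, 29.9 and 12.6 CPM in knockdown libraries. Replicate 3 was the lowest of each group, the groups overlapped, and each knockdown library was above its same-numbered control, with log2 ratios of 0.55, 1.06 and 1.84. It rose in the paired comparison (1.07 ± 0.17, adjusted p = 0.0013) and did not pass without the block (1.00 ± 0.48, adjusted p = 0.64). Sall2, a zinc finger factor, was at 171, 179.6 and 116 CPM in controls and 227, 269 and 175 CPM in knockdown libraries, again lowest in replicate 3 of each group. Its paired log2 fold change was 0.52 ± 0.06 (adjusted p = 5.2e-05). The POU factor Pou3f1, also named Oct6, followed the same pattern, at 85.2, 84.7 and 50.1 CPM against 99.3, 132 and 76.5 CPM (paired 0.48 ± 0.07, adjusted p = 0.00082).

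In 5 of the 15 primed genes every knockdown library was above every control, beside 6.64% of all genes. The de novo DNA methyltransferase Dnmt3b was at 255, 245 and 223 CPM in controls and 311, 374 and 259 CPM in knockdown libraries (paired 0.37 ± 0.07, adjusted p = 0.0034). N-cadherin, Cdh2, was at 14.5, 9.57 and 13.9 CPM in controls and 21.7, 20.7 and 20.7 CPM in knockdown libraries (paired 0.74 ± 0.12, adjusted p = 0.0015). Sox11 (paired 0.41 ± 0.08, adjusted p = 0.0041) and the let-7 inhibitor Lin28b (paired 0.27 ± 0.06, adjusted p = 0.030) also rose in the paired comparison, and Zic5 did not pass (paired 0.15 ± 0.08, adjusted p = 0.42). Foxd3 (paired 0.83 ± 0.14) and Zic2 (paired 0.44 ± 0.07) completed the 9. Otx2, a homeobox regulator of the primed state, was at 170.1, 157 and 54.3 CPM in controls and 189, 206 and 136 CPM in knockdown libraries; it was higher in each pair but did not pass (paired 0.59 ± 0.32, adjusted p = 0.56), its ratio in pair 3 being far above the others.

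**Figure D2:**
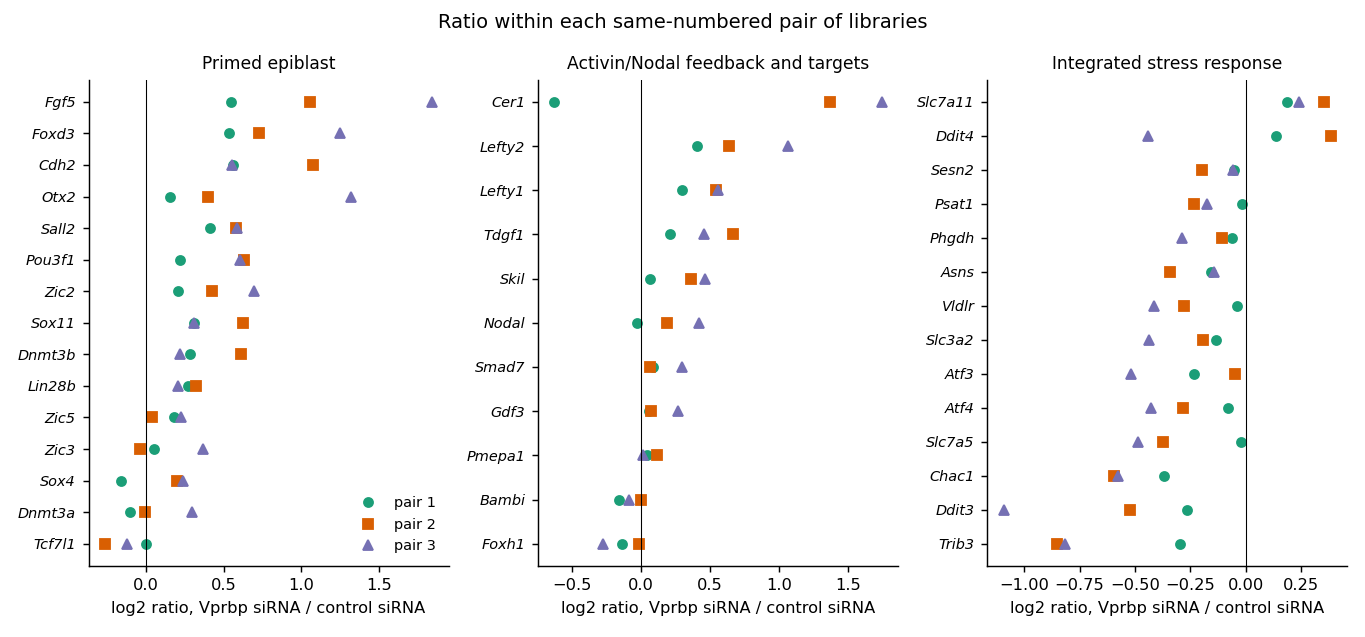
Log2 ratio of CPM (with 0.5 added) of Vprbp siRNA to control siRNA within each same-numbered pair of libraries, for tested members of the primed epiblast, Activin/Nodal feedback (11 of 12 members plotted) and integrated stress response lists. In Fgf5 all 3 ratios lie above 0, at 0.55, 1.06 and 1.84, and 12 of 14 stress response genes have all 3 ratios below 0. Over all 14600 genes tested, 2605 were lower in all 3 pairs.

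Naive pluripotency genes went both ways. Of 18 tested, 0 were called without the block, and in the paired comparison 3 were called, beside 2.37% of all genes: Gbx2 rose (0.36 ± 0.08, adjusted p = 0.011) and Socs3 (-0.33 ± 0.07, adjusted p = 0.0080) and Spp1 (-0.50 ± 0.06, adjusted p = 5.3e-05) fell, with a list median of -0.02. Without pairs 1, 2 and 3 the paired comparison called 1, 2 and 0 of them higher and 4, 1 and 2 lower. Socs3, a feedback inhibitor of LIF/Stat3 signalling, was at 66.2, 70.8 and 80.1 CPM in controls and 53.7, 57.0 and 62.0 CPM in knockdown libraries, without overlap. Spp1, the secreted protein osteopontin, was at 305, 305 and 501 CPM in controls and 221, 200.3 and 372 CPM in knockdown libraries, with replicate 3 highest in each group. Of 14 core genes 1 rose in the paired comparison, the threonine dehydrogenase Tdh (0.27 ± 0.06, adjusted p = 0.013), and without pair 2 or pair 3 it was not called. Pou5f1 and Sox2 had log2 fold changes of 0.01 and 0.02.

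Some antagonists and feedback genes of Activin/Nodal signalling rose within pairs. Of 12 tested, 8 were higher in all 3 pairs and 1 was lower, beside 2644 and 2605 of 14600 genes. The 1 lower was Foxh1, a Smad partner. Without the block 0 of the 12 were called. Lefty1, Lefty2, Skil and Tdgf1 were among those that rose in the paired comparison, beside 1.55% of all genes, with 0 falls and a list median of 0.23. Without pair 1 the rises were 6, Nodal among them, beside 2.54% of all genes. Without pair 3, and likewise without pair 2, the rises were 3, those of Lefty1, Lefty2 and Tdgf1. The list median in the fit of all libraries without replicate 3 of both groups was 0.14. Lefty1 (chromosome 1, 180935022 to 180938401), a secreted Nodal antagonist, was at 102, 105.0 and 38.1 CPM in controls and 126, 153 and 56.1 CPM in knockdown libraries. Its paralog Lefty2 (chromosome 1, 180893108 to 180899107) was at 56.4, 55.4 and 16.6 CPM and 74.6, 86.3 and 35.2 CPM. In both genes replicate 3 was far below the other replicates of its group, and the groups overlapped for that reason. Paired, Lefty1 gave 0.46 ± 0.07 (adjusted p = 0.00049) and Lefty2 gave 0.66 ± 0.09 (adjusted p = 0.00042). Without the block Lefty1 gave 0.44 ± 0.39 (adjusted p = 0.79) and Lefty2 gave 0.60 ± 0.42 (adjusted p = 0.74). Reads of these neighbouring paralogs may be shared.

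The co-receptor Tdgf1, also named Cripto, was at 266, 226 and 130.3 CPM in controls and 308, 358 and 179 CPM in knockdown libraries (paired 0.44 ± 0.07, adjusted p = 0.00087). Skil, a Smad co-repressor, had a paired value of 0.29 ± 0.07 (adjusted p = 0.020). The ligand Nodal itself was at 84.8, 83.9 and 63.6 CPM in controls and 83.2, 95.5 and 85.0 CPM in knockdown libraries. With all pairs kept, Nodal was not called in either fit (paired 0.19 ± 0.07, adjusted p = 0.22). The inhibitory Smad7 (paired 0.14 ± 0.07), Pmepa1 (0.05 ± 0.08) and the pseudoreceptor Bambi (-0.09 ± 0.14) were not called. Among 16 ligands, receptors and mediators of the pathway, Fst rose in the paired comparison. Follistatin, its product, binds and neutralizes Activin. Fst was at 2.58, 1.88 and 1.87 CPM in controls and 8.48, 4.51 and 3.27 CPM in knockdown libraries, without overlap (paired 1.31 ± 0.23, adjusted p = 0.0032; without the block 1.34 ± 0.45, adjusted p = 0.47). The receptor Tgfbr1 was likewise apart, between 53.7 and 61.5 CPM in controls and between 63.9 and 66.6 CPM in the knockdown, but not called (paired 0.20 ± 0.07, adjusted p = 0.15).

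Some patterning factors and guidance receptors also rose within pairs. Of 11 TALE homeobox genes, Meis1 rose without the block, and Meis1, Meis2 and Pknox2 rose in the paired comparison, beside 1.55% of all genes, with 0 falls. Without pairs 1, 2 and 3 the rises were 4, 2 and 3. Meis2, close kin of Meis1, was at 32.2, 26.5 and 33.1 CPM in controls and 56.2, 45.2 and 44.8 CPM in knockdown libraries (paired 0.67 ± 0.09, adjusted p = 0.00022). Of 10 Hox genes in the paired comparison, 2 rose, beside the same 1.55%, Hoxa5 (0.69 ± 0.16, adjusted p = 0.026) and Hoxb1 (0.78 ± 0.13, adjusted p = 0.0025). Hoxb1, an early responder to retinoic acid in the hindbrain, was at 8.41, 8.26 and 7.49 CPM in controls and 16.7, 13.8 and 11.3 CPM in knockdown libraries, a separation without overlap. Without pairs 1, 2 and 3 the Hox genes called were 2, 1 and 2, Hoxb1 each time, with Hoxa5 without pair 1 and Hoxb2 without pair 3.

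Some neural plate genes rose within pairs. Of 20 neuroectoderm genes tested 0 were called without the block. Values of 15 were above 0 and of 5 below, with a median of 0.35, or 0.19 without replicate 3 of both groups. In all 3 pairs 6 were higher and 1, Hes5, was lower, beside 2644 and 2605 of 14600 genes tested. Of 17 in the paired comparison 4 rose, beside 1.55% of all genes, and 0 fell. Without pairs 1, 2 and 3 the rises were 4, 2 and 5. Sox1, the earliest marker of the neural plate, was at 56.2, 50.6 and 53.6 CPM in controls and 81.3, 71.7 and 69.2 CPM in knockdown libraries, without overlap (paired 0.47 ± 0.07, adjusted p = 0.00056). Fgf15 (paired 0.76 ± 0.13, adjusted p = 0.0020), Pax3 (paired 1.17 ± 0.29, adjusted p = 0.034) and Gbx2, which is also on the naive list, were the other 3. Of 14 markers of differentiating neurons 0 rose and 1 fell in the paired comparison, the RNA-binding protein Elavl3 (-0.36 ± 0.09, adjusted p = 0.030), with a list median of 0.02. Of 18 Eph receptors and ephrins, Epha4, Efnb2 and Epha1 rose in the paired comparison, beside 1.55% of all genes, and 0 fell. Without pairs 1, 2 and 3 the rises were 4, 2 and 4. Efnb2 was at 38.7, 40.2 and 31.6 CPM in controls and 51.0, 60.3 and 43.3 CPM in knockdown libraries (paired 0.48 ± 0.08, adjusted p = 0.0011), and the groups of 9 of the 18 genes were apart, 7 higher and 2 lower, beside 6.64% and 5.65% of all genes.

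Retinoic acid genes went both ways. Of 16 tested, 0 were called without the block, and 1 rose and 1 fell in the paired comparison. Stra8, the retinoic acid induced gatekeeper of meiosis, was at 235, 234 and 279 CPM in controls and 158, 123 and 200.4 CPM in knockdown libraries, without overlap (paired -0.66 ± 0.07, adjusted p = 4.8e-05; without the block -0.64 ± 0.14, adjusted p = 0.20). Dhrs3, a retinaldehyde reductase, had a paired value of 0.55 ± 0.09 (adjusted p = 0.0014). Mesoderm genes were low in level. The primitive streak marker T, or Brachyury, was at 2.37, 2.10 and 2.62 CPM in controls and 7.03, 4.96 and 4.06 CPM in knockdown libraries (paired 1.15 ± 0.23, adjusted p = 0.0069; without the block 1.16 ± 0.74, adjusted p = 0.73). It was the only one of 10 streak and mesoderm genes called in the paired comparison. Ctgf, a target of the Hippo effector Yap, was at 81.8, 85.2 and 56.3 CPM in controls and 96.5, 134 and 94.8 CPM in knockdown libraries, without overlap; it and Amotl2 were the 2 of 14 Hippo targets that rose in the paired comparison (0.54 ± 0.08 and 0.24 ± 0.06, adjusted p = 0.00048 and 0.049). Of the Wnt, BMP and FGF/ERK target lists 1 gene each was called in the paired comparison: Lef1, a Wnt effector and target (0.84 ± 0.11, adjusted p = 0.00036), and Id2, a BMP target (0.74 ± 0.18, adjusted p = 0.029), rose, and Egr1, an immediate early gene (-0.41 ± 0.09, adjusted p = 0.019), fell. Of 12 germ cell genes Prdm1, the repressor that specifies germ cell precursors, rose (0.35 ± 0.09, adjusted p = 0.048) and Stra8 fell, and of 8 DNA methylation enzymes Dnmt3b rose. Over all genes, 1.55% rose and 0.818% fell in the paired comparison. Stra8, Dhrs3, Ctgf and Lef1 were also called whichever pair was left out, while Id2, Amotl2 and Dnmt3b were not called without pair 2. Of the fits with 1 pair left out, T was called only without pair 3, and Egr1 and Prdm1 only without pair 1.

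**Figure D3:**
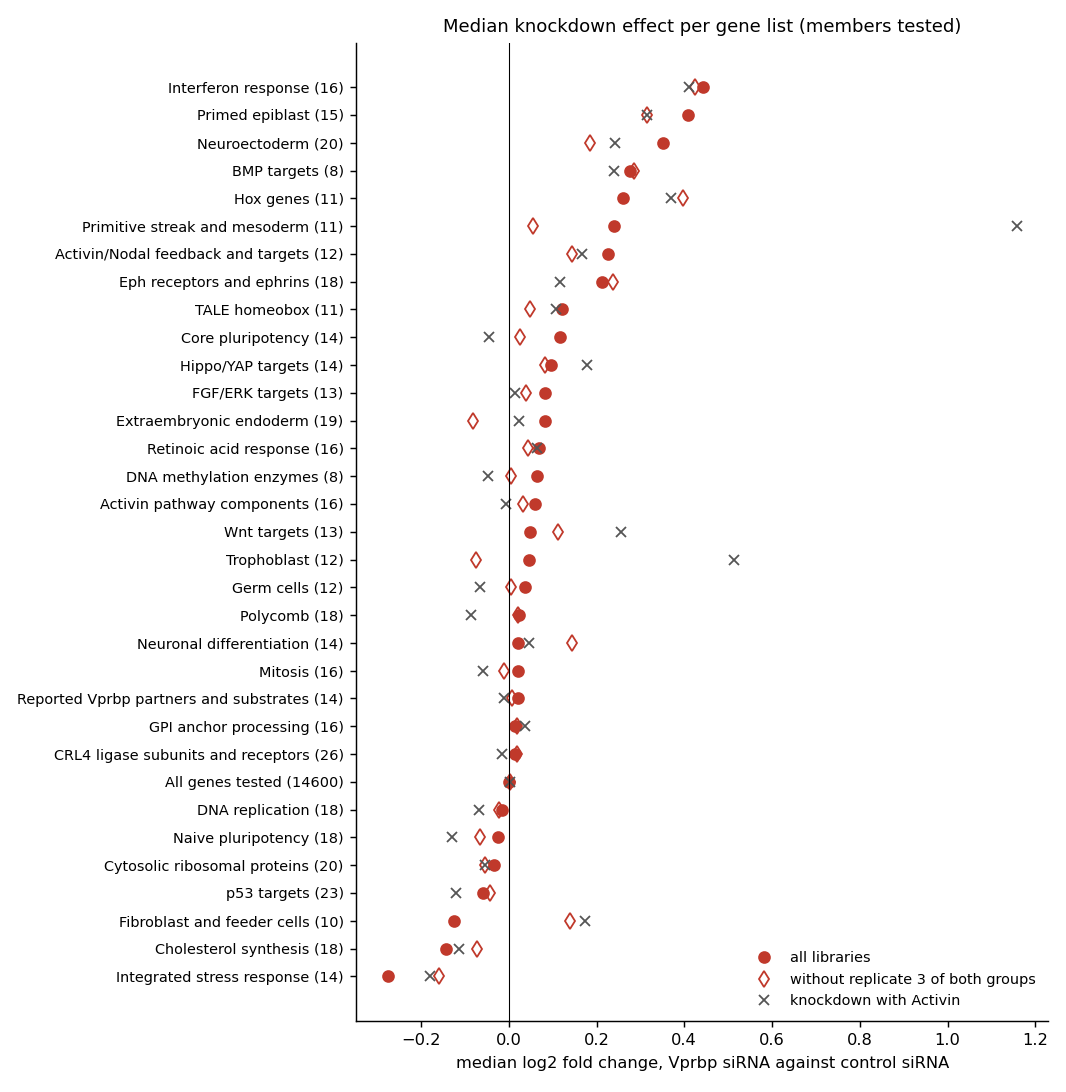
Median log2 fold change of the tested members of each gene list (number in brackets) for the knockdown without Activin in all libraries, the same without replicate 3 of both groups, and the knockdown with Activin. The interferon and primed epiblast lists have the highest medians without Activin, 0.44 and 0.41, and the integrated stress response list the lowest, -0.28, which is -0.16 without replicate 3.

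Beyond Ifitm3, 4 interferon-responsive genes rose in the paired comparison and 1 fell. Of 16 tested, Ifitm3 was called without the block, and the list median was 0.44. Of 13 in the paired comparison Ifitm3, Ddx58, Oasl2, Irgm1 and Irgm2 rose, beside 1.55% of all genes, and Stat2 fell, beside 0.818%. Without pair 3 the same 5 genes rose and 0 fell, and without pair 2 only Ifitm3 was called. Ddx58, the cytosolic RNA sensor RIG-I, was at 16.2, 17.5 and 12.5 CPM in controls and 20.3, 27.4 and 15.2 CPM in knockdown libraries (paired 0.43 ± 0.11, adjusted p = 0.043). Oasl2 was at 6.78, 8.70 and 1.87 CPM and 9.85, 18.2 and 5.36 CPM, and Irgm1, an interferon-inducible GTPase, at 5.22, 3.33 and 1.42 CPM and 6.49, 11.9 and 3.40 CPM. In these 3 genes replicate 2 of the knockdown was the highest library, and the median ratio of the list was 0.14, 0.56 and 0.14 in pairs 1, 2 and 3. The Ifitm3 neighbour Ifitm2 had a log2 fold change of 0.02 ± 0.07 and Ifitm1 one of 0.45 ± 0.20 (adjusted p = 0.61). Irgm1 and Irgm2, and the Ifitm genes, are close paralogs whose reads may be shared.

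Target genes of the integrated stress response, the programme in which the factor Atf4 raises amino acid supply genes and Ddit3, fell in part within pairs. Of 14 tested, 0 were called without the block, 12 were below 0 and the median was -0.28. In the paired comparison 7 of 13 fell, Trib3, Ddit3, Chac1, Atf4, Slc7a5, Slc3a2 and Asns, beside 0.818% of all genes, and 0 rose. Without pair 1 the falls were 7, without pair 2 they were 3 (Chac1, Ddit3 and Trib3), and without pair 3 they were 3 (Asns, Chac1 and Trib3, beside 0.608% of all genes). The groups overlapped in all 14 genes. Trib3, a pseudokinase that feeds back on Atf4, was at 26.5, 28.9 and 89.7 CPM in controls and 21.5, 15.8 and 50.8 CPM in knockdown libraries (paired -0.69 ± 0.10, adjusted p = 0.00042). Ddit3, also named CHOP, was at 11.7, 13.7 and 71.5 CPM in controls and 9.62, 9.39 and 33.2 CPM in knockdown libraries (paired -0.76 ± 0.13, adjusted p = 0.0022). Chac1, which degrades glutathione, was at 18.8, 18.6 and 51.2 CPM and 14.4, 12.2 and 34.2 CPM (paired -0.53 ± 0.10, adjusted p = 0.0035).

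Replicate 3 of each group stood highest in these genes, control siRNA replicate 3 most of all. The list summed to 2243, 2265 and 3679 CPM in controls and 2125, 1895 and 2903 CPM in knockdown libraries, and the median ratio was -0.07, -0.26 and -0.43 in pairs 1, 2 and 3. Leaving out control siRNA replicate 3 alone turned the unblocked values of 6 of the 7 genes above 0, between 0.04 and 0.48. The part of replicate 3 in the fall was not tested beyond these values. The windows of Trib3 (GRCm38.p6, chr2:152344031-152344310, minus strand) and Chac1 (chr2:119350992-119351271, plus strand) are shown because each holds 1 match, in capitals, to the CHOP-ATF response element, the site class bound by Atf4 with its partners.
Trib3: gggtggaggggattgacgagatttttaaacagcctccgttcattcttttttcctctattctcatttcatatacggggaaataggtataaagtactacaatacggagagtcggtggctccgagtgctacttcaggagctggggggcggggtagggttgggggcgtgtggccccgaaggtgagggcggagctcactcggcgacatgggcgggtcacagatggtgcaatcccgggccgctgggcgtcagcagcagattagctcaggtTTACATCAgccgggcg
Chac1: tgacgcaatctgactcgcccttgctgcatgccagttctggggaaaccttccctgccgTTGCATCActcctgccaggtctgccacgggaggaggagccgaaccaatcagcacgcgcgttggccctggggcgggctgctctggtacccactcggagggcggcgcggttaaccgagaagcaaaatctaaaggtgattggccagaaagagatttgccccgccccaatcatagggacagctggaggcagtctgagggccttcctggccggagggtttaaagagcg
The element was searched as TGATGNAA on both strands. It occurred in 3.81% of the 32851 windows and in those of 6 of 13 stress response genes with a window. The Ifitm3 window also held these letters, apart from its other matches.

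All 18 cholesterol synthesis genes tested had a log2 fold change below 0, from -0.28 to -0.03, with a median of -0.14, and 0 were called without the block. In the paired comparison 1 fell, the last enzyme of the pathway Dhcr7, at 219.6, 234 and 327 CPM in controls and 214, 194 and 233 CPM in knockdown libraries (-0.27 ± 0.07, adjusted p = 0.038). Without pair 1 the falls were 6 (Dhcr7, Fdft1, Fdps, Insig1, Lss and Srebf2, beside 1.95% of all genes; median -0.17), and without pairs 2 and 3 they were 0 and 0 by the same edgeR test (medians -0.10 and -0.07). In several basic processes no gene was called by either fit: 23 p53 targets (median -0.06), 18 DNA replication genes (-0.02), 16 mitosis genes (0.02) and 18 Polycomb genes (0.02). The same held for 20 cytosolic ribosomal protein genes (-0.03).

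Markers of other cell types showed no called change without the block. Trophoblast markers summed to 770 to 865 CPM in controls and 890.1 to 1009 CPM in knockdown libraries over 13 genes, without overlap. Of the 12 tested, 8 had a log2 fold change above 0 and 4 below. Their median was 0.05, or -0.07 without replicate 3 of both groups. Elf5 was at 0 counts in 5 of 6 libraries, and Peg10 alone rose in the paired comparison (0.23 ± 0.05, adjusted p = 0.026). Germ cell markers summed to 517 to 569 CPM in controls and 409 to 514 CPM in knockdown libraries over 12 genes, also without overlap. Stra8, whose fall is given above, held a large part of these sums. The germ cell list had a median log2 fold change of 0.04, with 7 genes above 0 and 5 below. The sums were not tested. Extraembryonic endoderm markers summed to 900.4 to 1031 CPM and 934 to 1134 CPM over 20 genes, with Afp at 0 in 4 of 6 libraries. Fibroblast and feeder markers summed to 173 to 214 CPM and 188 to 202 CPM over 12 genes, with Lum at 0 in 5 of 6 libraries. In these bulk samples a change in the number of cells of a type and a change in RNA per cell cannot be told apart.

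The same siRNAs with Activin A gave a comparison of 2 groups that share no library with the 2 groups above. Both comparisons were tested in the fit of all 15 libraries, with a shared estimate of spread, so their calls are not independent. There Vprbp was at 178, 175 and 184 CPM with control siRNA and 149, 131 and 135 CPM with Vprbp siRNA (-0.37 ± 0.06, adjusted p = 0.037), and Ifitm3 at 102, 100.5 and 101 CPM and 151, 160.0 and 126 CPM (0.53 ± 0.08, adjusted p = 0.014). These were the 2 genes called at both Activin levels, out of 6 called at each (0.0411% of genes tested in each). Zfp608 (0.39 ± 0.12, adjusted p = 0.26), Meis1 (0.56 ± 0.20, adjusted p = 0.32), Epha4 (0.19 ± 0.08, adjusted p = 0.40) and Pgap1 (0.14 ± 0.09, adjusted p = 0.57) had values above 0 that did not pass with Activin.

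Most of the genes called in the paired comparison had the same direction in the Activin libraries. Of the 218 higher genes 208 were also higher there (95.4%), beside 61.8% of all genes with a value above 0 without Activin, and of the 115 lower genes 102 were also lower (88.7%), beside 60.9%. The median log2 fold change with Activin was 0.30 and -0.19. Medians of the same genes without Activin, 0.44 and -0.36, come from the values that chose them, so the sizes are not compared. Without pair 3 the shares were 96.2% of 238 and 90.7% of 86 genes, and without pair 1 they were 84.7% of 359 and 81.1% of 275. Over all 14600 genes the 2 knockdown effects, each fitted on its own libraries, correlated with r = 0.33, and over the 10302 genes of at least 3 on the log2 CPM scale with r = 0.47; genes are not independent replicates, and the points share library depth and composition.

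**Figure D4:**
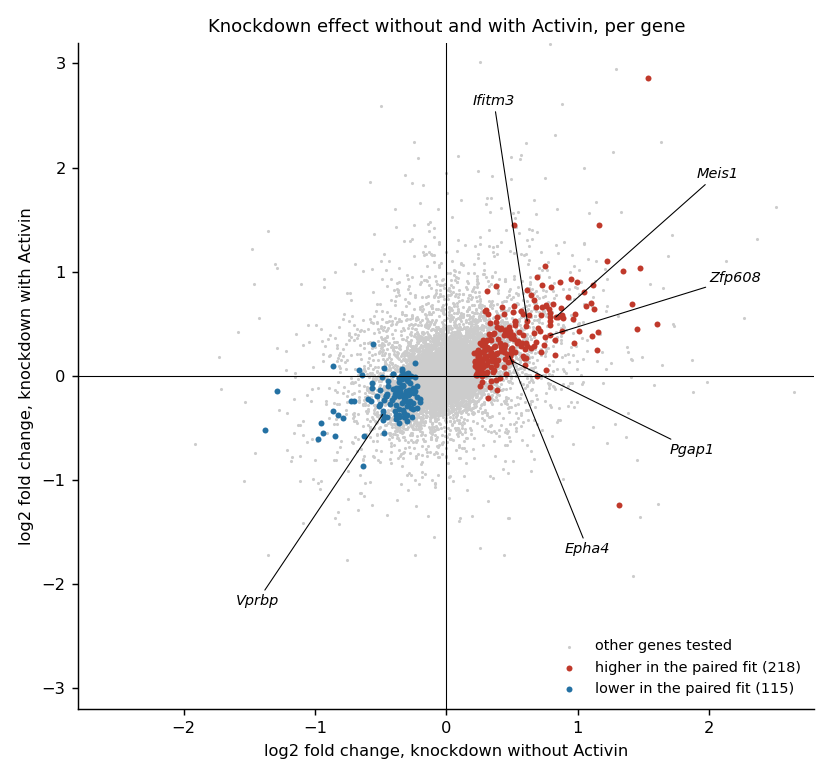
Log2 fold change of each of 14600 genes for Vprbp siRNA against control siRNA without Activin (x axis) and with Activin (y axis), with the 218 genes higher (red) and 115 lower (blue) in the paired comparison without Activin; the axis limits leave out 0 genes. Most red points lie above the horizontal line and most blue ones below it, 208 of 218 and 102 of 115.

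No gene passed a test of the difference between the 2 knockdown effects. The interaction contrast in edgeR called 0 of 14600 genes (0.0%), with 517 at an unadjusted p under 0.05 (3.54%); the block and DESeq2 also gave 0. Pgap1 (difference with minus without Activin -0.35, unadjusted p = 0.0089), Epha4 (-0.29, unadjusted p = 0.014) and Zfp608 (-0.40, unadjusted p = 0.032) had the smaller unadjusted p-values among the called genes. For Ifitm3 the difference was -0.09 (unadjusted p = 0.43). The primed epiblast list had a median of 0.32 with Activin, with 13 of 15 genes above 0, the feedback list 0.17 with 11 of 12, and the stress response list -0.18 with 12 of 14 below 0.

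The direction of the genes called in the paired comparison was also set beside that between Activin and SB with control siRNA. Those libraries were not used in the paired comparison. Of the 218 higher genes 158 were higher with Activin than with SB (72.5%), beside 55.1% of all genes with a value above 0, and of the 115 lower genes 95 were lower with Activin (82.6%), beside 55.6%. Among called genes whose groups were apart, the shares were 64.5% of 124 and 63.2% of 38. The median log2 ratio of Activin to SB was 0.90 for the primed epiblast list, 0.78 for the interferon list and 2.73 for the feedback list. For the neuroectoderm list and the Eph receptors and ephrins it was -0.38 and -0.24. The feedback list was chosen as targets of Smad2 and Smad3, so its ratio is not independent evidence. Of the 5 genes called higher without the block, 3 were higher with Activin than with SB (60%), Ifitm3 among them (0.92 ± 0.08). Those 5 calls came from the fit of all 15 libraries. Meis1 and Meis2 went against this order, being higher in the knockdown and lower with Activin than with SB (-2.65 ± 0.17 and -0.93 ± 0.14). So did Epha4 (-0.24 ± 0.08), Sox11 (-1.18) and Cdh2 (-0.96). Stra8, lower in the knockdown, was also lower with Activin than with SB (-2.93).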

How the data were processed

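Total RNA of 15 samples was sequenced, and the authors deposited 1 table of counts per gene symbol, without normalization. HTSeq 0.6.1p1 and build mm10 appear in the submitters' processing notes. Aligner, annotation and strand setting: not given in the sources used here. Reads of genes that overlap, on either strand, may therefore be mixed. The 5 HTSeq tallies that name no gene entered neither library sizes nor tests; 10.3% to 16.0% of a library's tally fell outside genes.

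Groups and replicate numbers came from the sample titles. Genes passing edgeR's filterByExpr (minimum count 10) were tested, 14600 of 24451. Counts were scaled by TMM, and CPM are on scaled library sizes. The test was edgeR's (4.0.16) quasi-likelihood test, with robust glmQLFit and glmQLFTest, in R 4.3.3 on all 15 libraries, 1 mean per group, with Benjamini-Hochberg adjustment over all genes and a threshold of 0.05. A fit of the 6 libraries compared, with the replicate number as a block, tested 14063 genes. Same-numbered libraries were accepted as pairs because each of the 3 correlations of their deviations (0.12, 0.20 and 0.37) exceeded 0.1; this comes from the data, not from the labels. Alternatives were DESeq2 1.42.0, RLE factors, library totals, other filters, the block and each library left out; leaving out pairs, or replicate 3 of both groups, was chosen after seeing the data. The procedure was tested on simulated data.

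Named were the called genes, the next in order of p up to 20 in all, the 10 largest rises and falls under the 15-library block, up to 4 members of smallest p per list, and Vprbp, Ddb1, Cul4a, Cul4b, Lefty1, Lefty2 and Nodal; other genes were named after their values were seen. The members and the 34 gene lists were chosen with earlier results of these data known. Mitochondrially encoded genes were not analysed here, and values of some list members are not reported here. Positions and sequences are from RefSeq on GRCm38, where 23249 of 24451 symbols had a direct match and 1078 a unique synonym.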

Additional observations from a re-analysis of the deposited data

How the results depend on the processing

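RLE size factors, library totals and a minimum of 1 CPM in 3 libraries each gave 6 called genes. No filter gave 10, DESeq2 31 (1137 genes had no adjusted p), the block over 15 libraries 18, the 6 libraries alone 1 and the 6 libraries with the replicate block 333, or 634, 103 and 325 without pairs 1, 2 and 3. Without replicate 3 of both groups there were 24 calls, and leaving out each library in turn gave 2 to 37, the highest without Vprbp siRNA replicate 3; the cause was not tested. Ifitm3 and Vprbp were called in all 6 of these fits, Epha4 in 3, Zfp608 in 2, and Pgap1 and Meis1 in 1.

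Values changed sign between fits with 1 library left out, ranging from -1.37 to 0.10 for Trib3, -0.49 to 0.04 for Slc3a2, -0.65 to 0.16 for Atf4, -1.75 to 0.48 for Ddit3, -1.14 to 0.13 for Chac1, -0.58 to 0.07 for Slc7a5, -0.01 to 0.15 for Ttk and -0.88 to 0.03 for Cdx2. The change came without control siRNA replicate 3 in the first 7 (0.0967, 0.0399, 0.160, 0.477, 0.129, 0.0679 and -0.0094) and without Vprbp siRNA replicate 3 in Cdx2 (0.0251). The difference of knockdown effects called 0 genes in each alternative run for it.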
